A study of Mus musculus with 11 samples.

Results

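The immunoglobulin genes and 3 genes of antibody-secreting plasma cells were followed across whole pancreas of young and aged mice. They were taken as every row of the count table annotated as an immunoglobulin V, D, J or C gene, with pseudogenes left out, together with Jchain, Mzb1 and Tnfrsf17. This gave 267 of 54532 rows, made up of 218 V, 19 D, 14 J and 13 C genes and the 3 plasma cell genes. Of these, 205 had at least 1 read in the 11 libraries.

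An antibody is built from heavy chains and kappa or lambda light chains. In each developing B cell 1 V segment is joined to a J segment (and, in the heavy chain, a D segment) ahead of a constant region, so each clone of B cells uses 1 heavy V segment as a rule. Many clones share a segment, and a clone is told by its junction, which counts per gene do not hold. Newly made B cells carry IgM and IgD, encoded by Ighm and Ighd, and class switching replaces Ighm by the constant gene of IgG, IgA or IgE. Plasma cells make far more antibody RNA than resting B cells. Jchain, which links IgM and IgA into polymers, Mzb1, a chaperone of antibody assembly in the endoplasmic reticulum, and Tnfrsf17, the survival receptor BCMA, mark them. In the pancreas, plasma cells are sparse cells between the acini, and lymph nodes lie against the gland.

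RNA was measured in 11 bulk libraries from C57BL/6JRj mice, 1 mouse per library by the labels. Young mice were 7 weeks and aged mice 18 months old. They were untreated (3 young mice, and 2 aged mice numbered 2 and 3) or had 4 injections of caerulein at 125 µg/kg (3 young and 3 aged mice), a cholecystokinin analogue that overstimulates acinar cells and starts pancreatitis. Treated libraries carry the time label 5H, and the notes can be read in more than 1 way on how long after the first injection the tissue was taken. The mice shared strain and tissue, and no allele or transgene is named in the labels.

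Libraries held 14223190 to 26537091 counts, and 13 acinar genes took 39.6% to 56.2% of the counts in each, as the label of pancreas asks. The library of young untreated mouse 2 stood apart and is given separately throughout. Its adipocyte genes summed to 419 CPM, against 8.89 to 35.6 CPM in the other 10 libraries. It had 770 reads of Glycam1, made by the high endothelial venules of lymph nodes, against 0 in each of the other 10 libraries, and 424 reads of the B cell gene Ms4a1 against 0 to 8. It held 28508 reads of the 267 genes, more than the 6354 of the other 10 libraries together. The genes with reads numbered 202 in that library, 15 over the 5 other young libraries and 120 over the 5 aged libraries. In bulk tissue, fewer cells of a type and less RNA per cell cannot be told apart.

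The V segments that led the aged libraries are shown here, since the results on V segment use turn on them. For each aged library the heavy and the kappa V segment with the most reads was taken, which gave 4 heavy and 4 kappa segments. The last 150 coding bases of each are printed 5′ to 3′ on the coding strand, from the GENCODE annotation of GRCm38, the assembly that mm10 denotes. Capitals mark the part from the last in-frame cysteine codon, the conserved residue at which CDR3, the most variable loop of the binding site, begins.
Ighv11-2: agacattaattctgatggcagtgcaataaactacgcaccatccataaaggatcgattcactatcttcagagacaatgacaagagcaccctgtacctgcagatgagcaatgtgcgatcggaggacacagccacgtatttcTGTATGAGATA
Ighv1-53: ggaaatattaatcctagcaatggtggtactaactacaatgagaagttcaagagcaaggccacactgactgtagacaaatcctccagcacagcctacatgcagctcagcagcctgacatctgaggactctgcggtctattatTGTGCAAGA
Ighv1-26: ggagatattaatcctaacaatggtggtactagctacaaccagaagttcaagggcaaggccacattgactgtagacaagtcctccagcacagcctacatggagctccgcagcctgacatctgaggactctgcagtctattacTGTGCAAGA
Ighv1-82: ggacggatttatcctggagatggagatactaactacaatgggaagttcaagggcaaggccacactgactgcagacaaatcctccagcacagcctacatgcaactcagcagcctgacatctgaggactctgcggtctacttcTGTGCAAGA
Igkv14-126: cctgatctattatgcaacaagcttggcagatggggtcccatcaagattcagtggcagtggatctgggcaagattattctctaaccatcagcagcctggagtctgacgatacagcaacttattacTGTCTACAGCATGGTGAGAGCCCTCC
Igkv4-57-1: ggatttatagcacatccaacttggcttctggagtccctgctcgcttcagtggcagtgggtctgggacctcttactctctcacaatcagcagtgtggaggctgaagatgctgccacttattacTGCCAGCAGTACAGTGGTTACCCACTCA
Igkv6-15: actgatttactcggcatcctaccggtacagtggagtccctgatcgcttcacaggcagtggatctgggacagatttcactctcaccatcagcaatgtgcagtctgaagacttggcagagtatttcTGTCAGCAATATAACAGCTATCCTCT
Igkv3-2: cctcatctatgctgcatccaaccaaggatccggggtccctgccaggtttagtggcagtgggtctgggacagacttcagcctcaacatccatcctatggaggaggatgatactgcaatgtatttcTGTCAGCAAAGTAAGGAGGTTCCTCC
These stretches lie in the V exons at chr12:114048241-114048390, chr12:115158403-115158552, chr12:114788372-114788521 and chr12:115952538-115952687, all on the minus strand. The kappa stretches lie at chr6:67896493-67896642 (plus strand), chr6:69544359-69544508 (minus), chr6:70406469-70406618 (minus) and chr6:70698918-70699067 (plus). The 3 heavy segments of family 1 end in the same 9 capital bases, which are the cysteine, alanine and arginine codons. Ighv11-2 differs there and ends in 11 capital bases, and the kappa segments carry 26 or 28, since a kappa V segment encodes most of its own CDR3. The heavy chain members span chr12:113254830-116000461 (144 genes), the kappa members chr6:67555497-70726966 (108 genes) and the lambda members chr16:19061618-19260859 (12 genes).

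Antibody RNA was nearly absent from the pancreas of the 5 other young mice and present in every aged mouse. Reads of all 267 genes summed to 14 to 26 in each of those young libraries, or 98 in all. In the aged libraries they summed to 313 to 1994, or 6256 in all. Scaled to each library's total as counts per 1000000 (CPM), this was 0.958 ± 0.0868 CPM in the young (SD, n = 5) and 63.7 ± 32.5 CPM in the aged (SD, n = 5). Young untreated mouse 2 had 1288 CPM.

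Ighm, the constant gene of IgM, had the largest share of these reads among single genes in each aged library, 34.0% to 45.7%. Its counts were 19 and 15 in young untreated mice 1 and 3, and 13, 6 and 0 in the young caerulein mice. They were 126 and 513 in the aged untreated mice and 515, 911 and 383 in the aged caerulein mice, against 7601 in young untreated mouse 2. Every aged library lay above each of the 5 young libraries and below young untreated mouse 2. The TMM-scaled level was 24.7 ± 12.6 CPM over the 5 aged and 0.547 ± 0.438 CPM over the 5 young libraries (SD, n = 5 each).

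Igkc, the constant gene of the kappa light chain, followed the same order. It had 1, 4, 0, 7 and 1 reads in the 5 young libraries. The aged untreated libraries had 63 and 427 reads, and the aged caerulein libraries 394, 462 and 321. Young untreated mouse 2 had 6587. The scaled level was 16.8 ± 7.23 CPM over the aged and 0.123 ± 0.122 CPM over the young libraries (SD, n = 5 each). Per kilobase of gene length, by which levels of different genes can be compared, Igkc reached 31.5 ± 13.6 CPM and Ighm 13.1 ± 6.67 CPM in the aged libraries (SD, n = 5).

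Jchain separated the ages as cleanly. Of the 5 young libraries, 4 had 0 reads and young caerulein mouse 2 had 1 read. The aged untreated libraries had 21 and 70 reads, the aged caerulein libraries 72, 90 and 54, and young untreated mouse 2 had 1381. Pooled over libraries, the scaled ratio of aged to young was 331 with a 95% exact counting interval of 59.0 to 13134, which covers counting error only. Mzb1 was scarcer, with 0 and 5 reads in the aged untreated and 8, 6 and 0 in the aged caerulein libraries, against 1 read over the 5 young libraries and 132 in young untreated mouse 2. Tnfrsf17 was at the edge of detection, with 3 reads over the 5 aged and 2 over the 5 young libraries, and 3 in young untreated mouse 2.

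**Figure D1:**
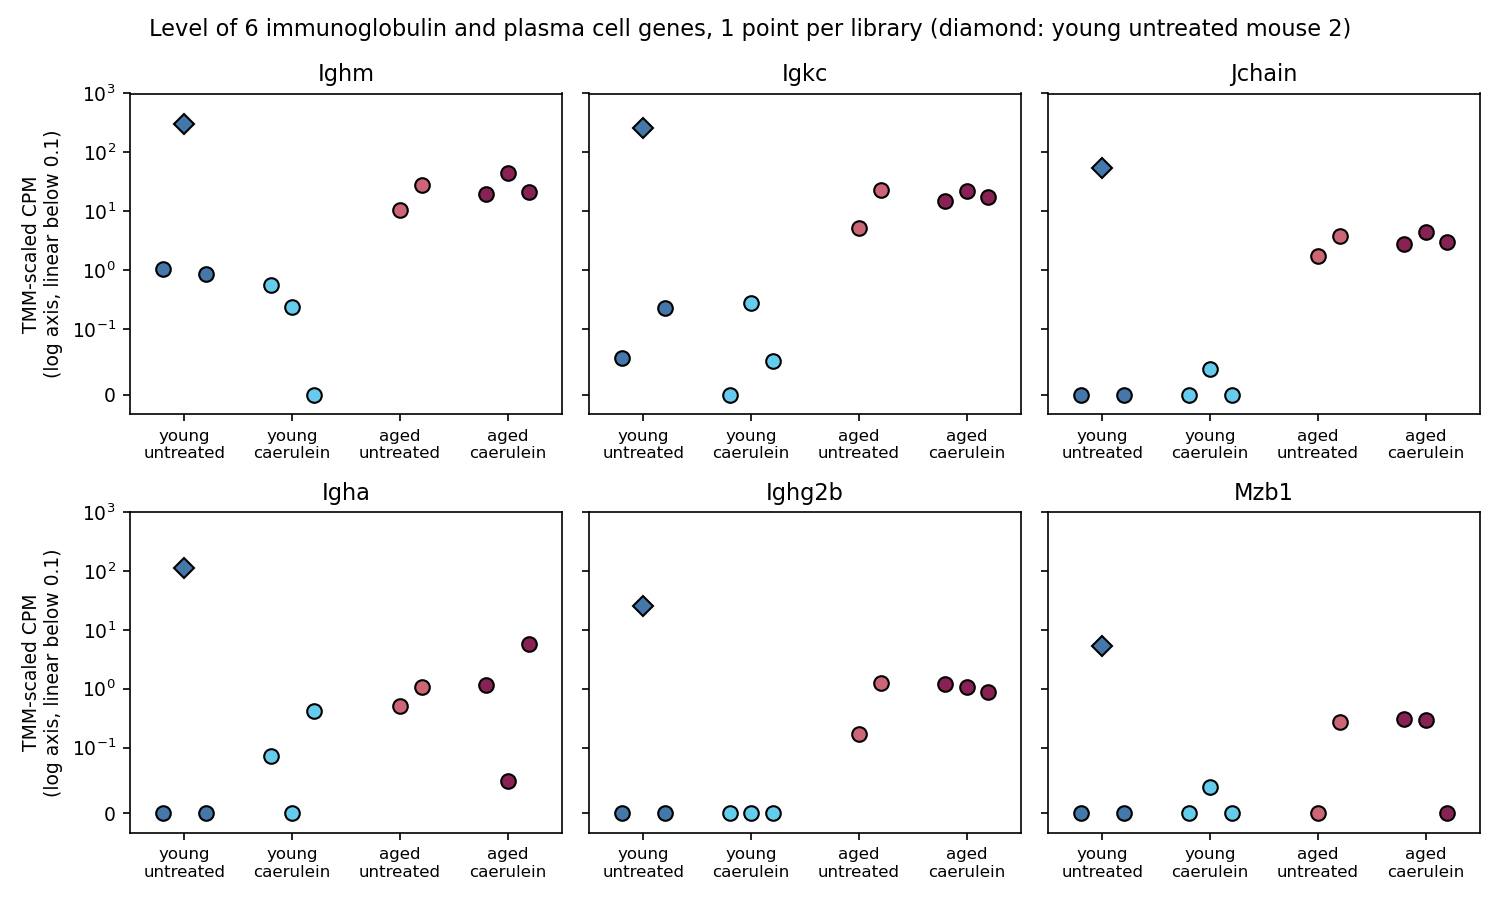
Level of 6 genes in each of the 11 libraries, as TMM-scaled CPM on an axis that is logarithmic above 0.1 and linear below it. Each point is 1 library, coloured by group, and the diamond is young untreated mouse 2. For Ighm, Igkc, Jchain and Ighg2b all 5 aged points lie above the 5 young circles, while for Igha and Mzb1 the ages overlap.

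The switched isotypes were present in the aged mice at lower counts and less evenly. Ighg2b, an IgG2 constant gene, had 2 and 23 reads in the aged untreated and 32, 22 and 16 in the aged caerulein libraries, and 0 in each of the 5 young libraries. Against a floor of 3 counts over the young libraries, its pooled level was at least 34.2-fold higher in the aged. Ighg2c, the other IgG2 gene of this strain, had 1 and 16 reads in the aged untreated libraries and 47, 0 and 0 in the aged caerulein libraries, so 3 of 5 aged mice showed it. Ighg1 and Ighg3 had 3 reads each over the 5 aged libraries, against 113 and 527 in young untreated mouse 2.

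Igha, the constant gene of the mucosal antibody IgA, ran from 1 to 102 reads in the aged mice. It had 6 and 20 reads in the aged untreated mice and 30, 1 and 102 in the aged caerulein mice. The young caerulein mice had 2, 0 and 8, so the ages overlapped. Ighd had 5 reads in aged caerulein mouse 1, 0 in the other 4 aged libraries and 4 over the 5 young libraries, against 1060 in young untreated mouse 2. Ighe had 0 reads in the 10 libraries and 2 in young untreated mouse 2.

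Among light chains, Iglc2 had 1 and 2 reads in the aged untreated and 2, 11 and 1 in the aged caerulein libraries, and 0 in the 5 young. Iglc1 had 0 and 4 reads in the aged untreated and 3, 33 and 1 in the aged caerulein libraries. Among the aged mice both were highest in aged caerulein mouse 2, and young untreated mouse 2 had 310 reads of Iglc2 and 194 of Iglc1. Iglc3 had 3 reads over the aged libraries, all of them in that mouse, and Iglc4 had 0.

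With all 11 libraries in 1 edgeR quasi-likelihood model, 37 of the 267 genes had enough reads to be tested. In young caerulein against young untreated mice, 15 of the 37 fell and 0 rose, where 24.7% of all genes tested fell and 27.5% rose (Benjamini-Hochberg adjusted p below 0.05 over 14113 genes). The 15 were Ighm, Igkc, Jchain, Igha, Ighg2b, Ighg2c, Iglc1, Iglc2 and 7 V segments. Most of the 37 passed the filter only through young untreated mouse 2, since 13 passed without it, so their direction followed from the filter. For Ighm the log2 change was -8.48 ± 2.22 (SE, adjusted p = 0.00806). These calls rested on young untreated mouse 2: without it, 0 of 13 tested genes were called in either direction in this comparison, 0 of them at an unadjusted p under 0.05 and 1 by DESeq2 at that level. With the mouse number as a block, 12 genes were called lower, 6 of them among the 15 (Ighm, Igkc, Jchain, Iglc1, Iglc2 and Iglv1). The edgeR adjusted p was 0.0353 for Ighm, 0.0783 for Igha, 0.0701 for Ighg2b and 0.107 for Ighg2c under the block.

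In the other 5 comparisons the 11-library edgeR model called 0 of the 37 genes. The shares of all genes given below are at an adjusted p below 0.05. They stand beside the 0 called, not beside the counts at an unadjusted p. In aged against young caerulein mice 2.46% of all genes tested were called higher and 1.27% lower. There 7 of the 37 had an unadjusted p under 0.05, 3 by DESeq2. Ighm reached 6.64 ± 2.18 (SE, adjusted p = 0.127). The spread that young untreated mouse 2 adds to its group enters the error of every comparison in that model. In aged against young untreated mice the background was 0.0567% higher and 0.0354% lower, and 0 of the 37 had an unadjusted p under 0.05 in edgeR or DESeq2 (0 and 0). In aged caerulein against aged untreated mice it was 27.0% higher and 21.2% lower, also with 0 and 0. Averaged over treatments, 1 of the 37 had an unadjusted p under 0.05 and 0 by DESeq2, with 0.914% of all genes called higher and 0.404% lower. For the difference between the caerulein responses, aged minus young, 23 of the 37 had an unadjusted p under 0.05 and 2 by DESeq2. Most of the 37 passed the filter only through young untreated mouse 2, so nothing is read from these 23. At an adjusted p below 0.05, 0.00709% of all genes were called higher and 0.00709% lower.

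Without young untreated mouse 2, 13 of the genes were tested. The 5 young libraries hold 98 of the 6354 reads of the members, so a member could pass the filter on low counts almost only through the aged libraries. That none was called lower in the aged, and the share called beside the background, follow from this filter, and nothing is read from them. In aged against young caerulein mice 7 of the 13 rose and 0 fell, where 7.85% of all 13567 genes rose and 6.31% fell. They were Ighm, Igkc, Jchain, Ighg2b and the V segments Igkv3-2, Ighv1-53 and Igkv5-39. Ighm changed by 6.61 ± 0.58 on the log2 scale (SE, adjusted p = 1.36e-05), Igkc by 7.19 ± 0.66 (adjusted p = 1.94e-05) and Jchain by 7.30 ± 0.66 (adjusted p = 2.68e-05). Igha, at 3.80 ± 1.22, did not pass (adjusted p = 0.056). In the 6 caerulein libraries alone, in which that mouse has no part, 5 genes could be tested and were called higher (Igkc, Ighm, Jchain, Igkv3-2 and Ighg2b), where 7.81% of all genes rose and 5.75% fell. These too passed the filter through the aged mice.

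In the untreated mice, 3 of the 13 rose with age and 0 fell, where 0.258% of all genes rose and 0.147% fell. These were Ighm at 4.32 ± 0.62 (SE, adjusted p = 0.00695), Igkc at 6.61 ± 0.85 (adjusted p = 0.00321) and Jchain (adjusted p = 0.00294). Jchain had 0 reads in young untreated mice 1 and 3 and was at least 35.1-fold higher in the aged untreated mice. With 2 libraries in each group, leaving out 1 more untreated mouse leaves an arm of 1, whose spread is taken from the other groups. Each of the 10 remaining libraries, treated or untreated, was left out in turn. Over these 10 fits the log2 change of Ighm ran from 3.43 to 4.82 and that of Igkc from 5.14 to 7.87. Leaving out young untreated mouse 1 as well gave an adjusted p of 0.0796 for Ighm and 0.0558 for Igkc, leaving out mouse 3 gave 0.108 and 0.0541, and leaving out aged untreated mouse 3 gave 0.0781 for Ighm. Jchain was called in each of the 10 fits that left out 1 further library.

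Fits on the compared groups alone, which in the untreated comparison keep young untreated mouse 2, gave other counts. In aged against young untreated mice 0 of 13 genes passed (0 at an unadjusted p under 0.05 in edgeR), with a background of 0.0156% higher and 0.0% lower. In aged caerulein against aged untreated mice Igkv3-2 was higher and Igkv14-126 lower, of 13 tested, with 31.4% and 29.2%. In young caerulein against young untreated mice only 1 gene could be tested, Ighm, which was lower, with 26.2% of all genes higher and 21.6% lower.

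Averaged over treatments, 7 of the 13 were higher in the aged and 0 lower, against 2.92% and 2.21% of all genes. They were Ighm, Igkc, Jchain, Ighg2b, Igkv3-2, Igkv14-126 and Ighv1-53. The log2 change was 5.46 ± 0.43 for Ighm (SE, adjusted p = 1.58e-05) and 6.90 ± 0.54 for Igkc (adjusted p = 1.57e-05). Of the 122 genes with a read in these 10 libraries, 6 had every aged library above every young one, against a background of 0.599% of 25691 genes. They were Ighm, Igkc, Jchain, Ighg2b, Iglc2 and Igkv10-96. Reads were seen for 120 members in the aged and 15 in the 5 young libraries. Most could thus differ in this direction only, and nothing is read from the share. Iglc2 and Igkv10-96 had 1 read in their lowest aged library.

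An exact permutation test moved the age labels within each treatment, gene by gene. For Ighm, Igkc, Jchain, Ighg2b and Iglc2 the two-sided p was 0.0167 without young untreated mouse 2, the smallest that its 120 reassignments can give, among 14 genes examined in this way. Igha gave 0.05. With all 11 libraries the smallest p of 16 genes was 0.13, for Ighm.

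Within the aged mice, 1 V segment was called between treated and untreated mice. In aged caerulein against aged untreated mice, without young untreated mouse 2, 1 of the 13 genes rose and 0 fell, where 30.7% of all genes rose and 27.6% fell. That gene was the V segment Igkv3-2, with 0 and 10 reads in the untreated and 68, 92 and 55 in the treated mice (log2 change 3.35 ± 0.73, SE, adjusted p = 0.00233). Igkv3-2 passed the filter on low counts through the treated mice, so nothing is read from its direction. Ighm changed by 0.47 ± 0.40 (SE, adjusted p = 0.328), Igkc by 0.27 ± 0.41 (adjusted p = 0.601) and Jchain by 0.19 ± 0.39 (adjusted p = 0.712). Leaving out aged untreated mouse 3 as well, which leaves 1 untreated aged mouse, gave 1.37 for Ighm (adjusted p = 0.0377) and 1.75 for Igkc (adjusted p = 0.00346). The difference between the caerulein responses of the ages called 0 of 13 genes in edgeR, where 1.48% of all genes were called higher and 0.811% lower. None of the 13 had an unadjusted p under 0.05 there in edgeR (0) or DESeq2 (0).

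IgM was the main isotype in every aged pancreas. Ighm took 76.4% to 97.4% of the heavy chain constant reads (mean 87.3% ± 8.25, SD, n = 5). The 4 IgG genes together took 2.46% to 12.7%, with the highest share in aged caerulein mouse 1. Igha took 20.4% in aged caerulein mouse 3 (exact 95% binomial interval 16.9% to 24.2%, 102 of 501 reads) and 0.107% in aged caerulein mouse 2 (0.00271% to 0.594%, 1 of 935 reads). The other 3 aged mice lay between 3.49% and 4.76%.

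Young untreated mouse 2 had another makeup. Ighm took 57.1% of its heavy constant reads (56.3% to 58.0%, 7601 of 13302), Igha 21.4%, the IgG genes 13.5% and Ighd 7.97%. Each aged library had a higher Ighm share. Kappa took 90.8% to 99.4% of light chain constant reads in the aged libraries and 91.5% in young untreated mouse 2. The lowest kappa share was that of aged caerulein mouse 2, where lambda took 9.23% (6.86% to 12.1%, 47 of 509 reads) against 0.619% to 1.56% in the other 4.

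**Figure D2:**
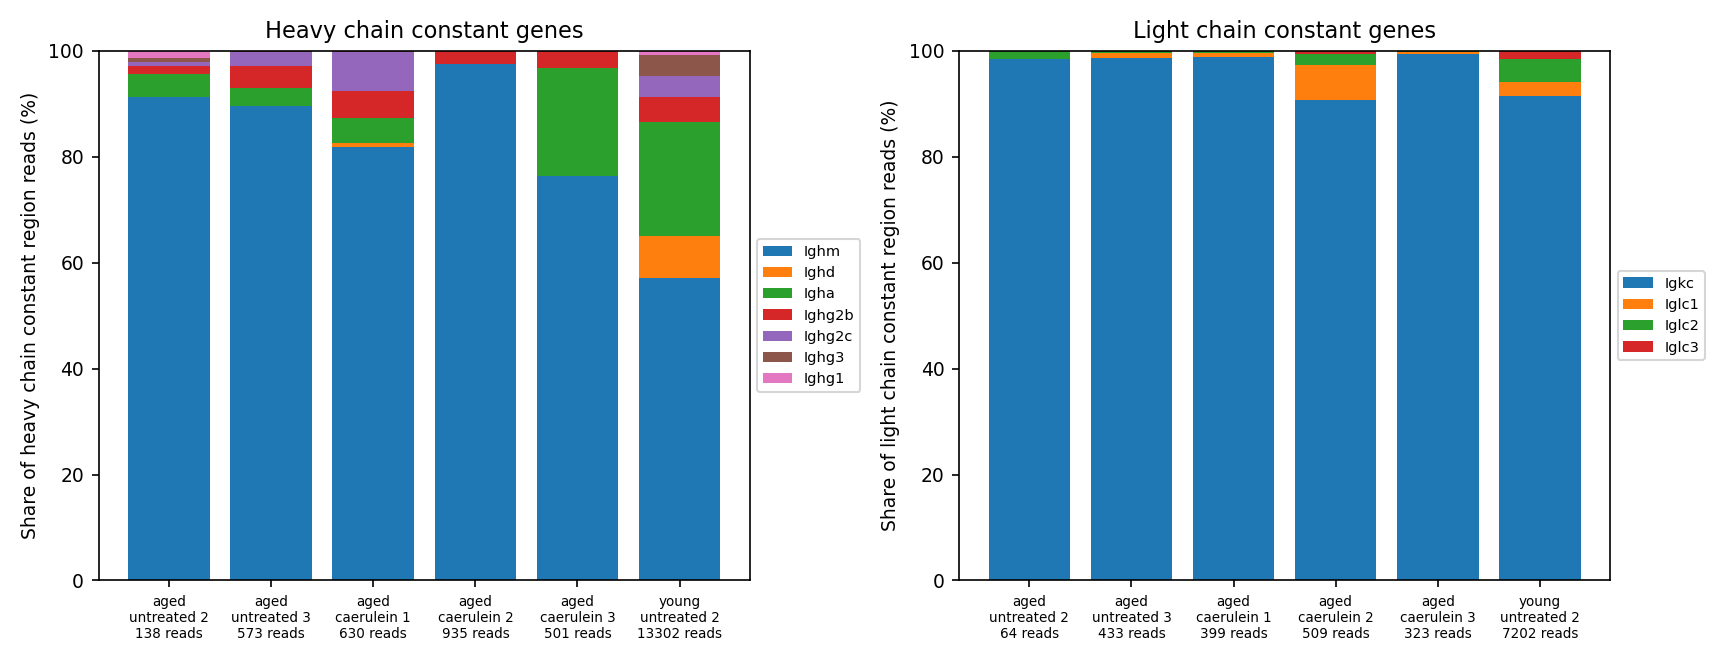
Shares of the constant genes among heavy chain (left) and light chain (right) constant region reads in the 5 aged libraries and young untreated mouse 2, in percent, with the number of reads under each bar. Ighe and Iglc4, with 2 reads each in young untreated mouse 2, are not drawn. Ighm leads in every heavy chain bar and Igkc in every light chain bar, Igha is widest in aged caerulein mouse 3 and young untreated mouse 2, and Ighd shows mainly in the latter.

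Reads per 1000 Ighm reads were compared between the aged mice and young untreated mouse 2. Jchain had 98.8 to 167 reads per 1000 Ighm reads in the aged libraries (137 ± 24.3, SD, n = 5) and 182 in young untreated mouse 2. The exact interval of aged caerulein mouse 2 (78.7 to 123) lay below that of young untreated mouse 2 (171 to 192). Those of the other aged mice overlapped it. The other plasma cell gene with enough reads, Mzb1, had 17.4 per 1000 in young untreated mouse 2. It had 0 and 9.75 in the aged untreated mice and 15.5, 6.59 and 0 in the aged caerulein mice, where the intervals of mice 2 and 3 ended at 14.4 and 9.68, below that library. Ighd, which resting B cells express beside Ighm, had 139 per 1000 in young untreated mouse 2. It had 9.71 per 1000 in aged caerulein mouse 1 and 0 in the other 4 aged libraries, where the exact intervals reached 4.06 to 29.7.

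The B cell receptor component Cd79a had 94.6 reads per 1000 Ighm reads in young untreated mouse 2. The aged untreated mice had 39.7 and 5.85 per 1000, and the aged caerulein mice 31.1, 0 and 5.22. Ms4a1, which encodes CD20, had 55.8 per 1000 in young untreated mouse 2 and 0 to 15.9 in the aged. The aged values rest on at most 16 reads of Cd79a and 8 of Ms4a1 in a library.

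**Figure D3:**
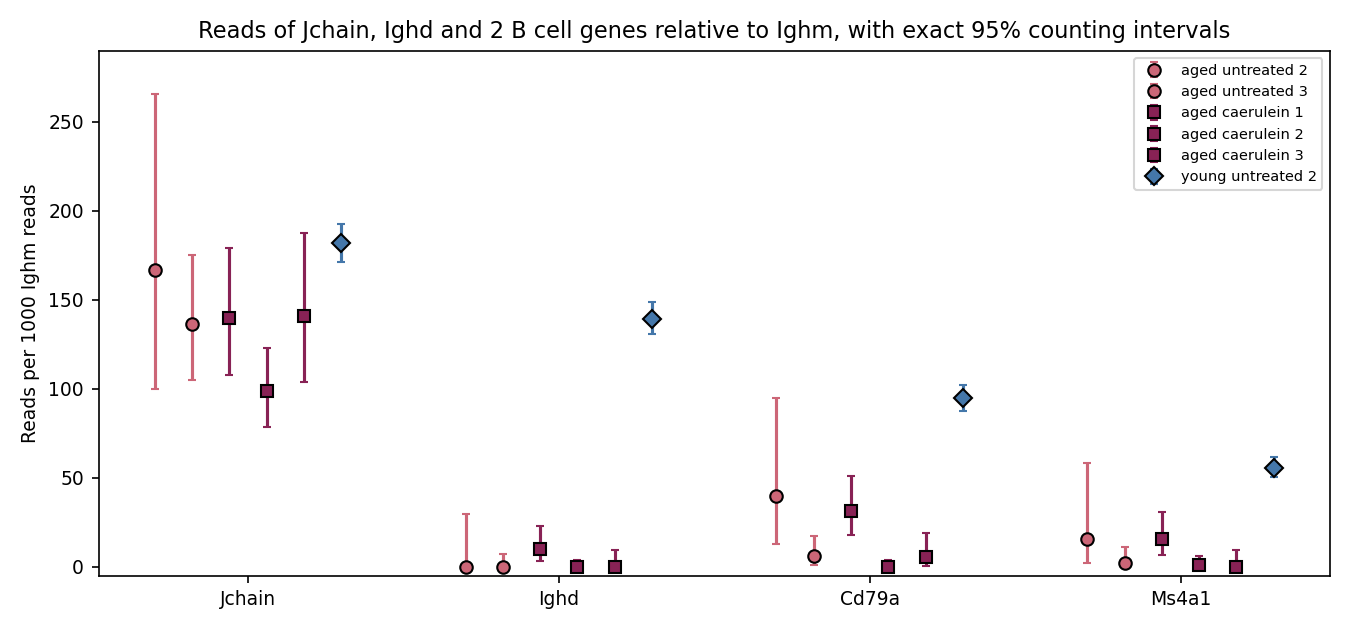
Reads of Jchain, Ighd, Cd79a and Ms4a1 per 1000 reads of Ighm in the 5 aged libraries and young untreated mouse 2, with exact 95% counting intervals. For each gene drawn every aged point lies below young untreated mouse 2, with Jchain at 98.8 to 167 beside 182.

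Other genes of B cells gave little in the 10 libraries. Of the 18 follicular and naive B cell genes, 5 could be tested without young untreated mouse 2. In aged against young caerulein mice 1 rose (Cd74, the invariant chain, which macrophages and dendritic cells also make) and 1 fell (Ebf1, a B cell factor also made in adipocytes, by 0.88 on the log2 scale, edgeR adjusted p = 0.0386). Cd74 rose by 1.43 ± 0.17 (SE, adjusted p = 0.000113), with 192 to 319 reads in the young and 342 to 756 in the aged libraries. The median log2 difference of the 5 was 0.43, against -0.01 over all genes, of which 7.85% rose and 6.31% fell. In aged against young untreated mice 0 of the 5 passed, and their median was -0.20. The list summed to 13.6 to 23.3 CPM in the 5 young and 27.02 to 58.9 CPM in the 5 aged libraries, and most of it was Cd74. The transcription factor Pax5 had 0 to 4 reads in each of the 10 libraries and 577 in young untreated mouse 2.

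Of the 7 genes of V segment rearrangement and pre-B cells, 5 (Rag1, Rag2, Dntt, Igll1 and Vpreb2) had 0 reads in each of the 10 libraries. Vpreb1, which with Igll1 forms the surrogate light chain, had 0 to 5 reads in the 5 young and 0 to 3 in the 5 aged libraries, and 1 in young untreated mouse 2. Il7r, an interleukin receptor of B cell precursors and T cells, had 0 to 3 reads in the young and 2 to 10 in the aged libraries, and 300 in young untreated mouse 2. Of the 8 germinal centre and switching genes, 4 were tested and 0 passed in aged against young caerulein mice without young untreated mouse 2, 0 of them at an unadjusted p under 0.05 in edgeR. Their median was -0.08.

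Several of the 17 plasma cell identity genes are also used by secretory acinar cells. Xbp1, the factor of the secretory programme, had 4241 to 11761 reads in the 10 libraries and 4864 in young untreated mouse 2, where the antibody genes were highest. Of the list, 12 genes could be tested without young untreated mouse 2, and in aged against young caerulein mice 5 rose and 0 fell, where 7.85% of all genes rose and 6.31% fell. The median log2 change of the 12 was 0.44, against -0.01 over all genes. These were Tent5c, which stabilises secretory mRNA, Derl3, of endoplasmic reticulum degradation, Sdc1, the syndecan CD138, Cd38, an ectoenzyme, and Fkbp11, a secretory folding enzyme. Tent5c had 667 to 3239 reads in the aged libraries, and it rose by 1.39 ± 0.11 (SE, adjusted p = 7.20e-06). With caerulein against untreated, Tent5c, Derl3 and Fkbp11 were called lower and Sdc1 higher at both ages, and Cd38 higher in the aged. Of the 12, 5 fell and 2 rose with caerulein in the young, where 26.8% and 30.8% of all genes did. In the aged 5 fell and 4 rose, where 27.6% and 30.7% of all genes did. In aged against young untreated mice, also without young untreated mouse 2, 0 of the 12 passed, where 0.258% of all genes rose and 0.147% fell. The median of the 12 there was 0.03. Irf4 and Pou2af1, regulators confined mainly to lymphoid cells, had 0 to 6 and 0 to 5 reads in the 10 libraries and were below the level at which they could be tested.

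Genes that receive or move antibody were read as well. Pigr, which carries IgA and IgM across epithelium, had 75 to 198 reads in the aged and 90 to 361 in the 5 young libraries, so the ages overlapped. Of the 12 transport and Fc receptor genes, 8 were tested, and 3 rose in aged against young caerulein mice while 0 fell, again beside 7.85% and 6.31% of all genes. Their median log2 change was 0.51, against -0.01 over all genes. These were Fcgr2b and Fcgr1, IgG receptors of macrophages and other cells, and Fcna, a ficolin of macrophages. Fcgr2b rose by 1.17 ± 0.31 (SE, adjusted p = 0.0216). In aged against young untreated mice 0 of the 8 passed, and their median was 0.25. Of 17 homing and survival signals, 7 were tested and 0 passed in edgeR in aged against young caerulein mice. Of these 7, 3 had an unadjusted p under 0.05, and their median was 0.18. Tnfsf13b, the survival factor BAFF, had 1 to 5 reads in the young and 5 to 9 in the aged libraries.

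Markers of other cell types were read beside the antibody genes, and not all of them separated the ages. The 16 T cell and NK cell genes summed to 3 to 14 reads (0.185 to 0.788 CPM) in the 5 young and 24 to 56 (1.41 to 2.25 CPM) in the 5 aged libraries, and to 3543 in young untreated mouse 2. Of the 16, 8 to 13 were at 0 in each young library and 2 to 6 in each aged one. Cd8a, the coreceptor of cytotoxic T cells, had 0 reads in the 5 young libraries and 1 to 5 in each aged library. Others overlapped, with 0 to 3 reads of Cd28 in the young and 0 to 4 in the aged libraries. Klrb1c had 0 to 3 in the young and 0 to 1 in the aged. None of the 16 could be tested without young untreated mouse 2. The 12 macrophage and dendritic cell genes summed to 23.5 to 51.9 CPM in the young and 27.5 to 74.9 CPM in the aged libraries, which overlapped. Of these 12, 8 were tested without young untreated mouse 2, and in aged against young caerulein mice 1 rose, the mannose receptor Mrc1 of macrophages (log2 change 0.88 ± 0.20, SE, edgeR adjusted p = 0.0104), and 0 fell, while 3 had an unadjusted p under 0.05. Their median was 0.41, against -0.01 over all genes, of which 7.85% rose and 6.31% fell. Their part in the result was not tested. Lymph node stroma genes gave no such split, with 0.513 to 2.59 CPM in the young, 0.469 to 4.15 CPM in the aged and 110 CPM in young untreated mouse 2. Glycam1 was at 0 in all 10 libraries. Adipocyte genes summed to 8.89 to 35.6 CPM in the 5 young and 10.1 to 27.2 CPM in the aged libraries, which overlapped.

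The V segments were used unevenly, and no heavy and kappa pair of leading segments was shared by 2 aged mice. Aged untreated mouse 2 had 55 kappa V reads, of which 36 were Igkv14-126 (65.5%, exact 95% binomial interval 51.4% to 77.8%). It had 33 heavy V reads, of which 12 were Ighv11-2 (36.4%, 20.4% to 54.9%), the heavy segment printed above with the differing end. In mouse, Ighv11-2 with Igkv14-126 is the textbook pair of B-1 cell antibodies that bind phosphatidylcholine. Bulk reads do not show which heavy and light chains share a cell. Ighv11-2 had 2 reads in aged untreated mouse 3, 3 in aged caerulein mouse 1, 0 in the other 2 aged libraries and 41 of 2734 heavy V reads in young untreated mouse 2.

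Aged untreated mouse 3 was led by Igkv4-57-1, with 39 of 181 kappa V reads (21.5%), and by Ighv1-53, with 15 of 79 heavy V reads (19.0%). Igkv4-57-1 had 2 reads in aged caerulein mouse 3, 0 in the other 3 aged libraries and 5 in young untreated mouse 2. Aged caerulein mouse 1 had Igkv6-15 at 82 of 238 kappa V reads (34.5%) and Ighv1-26 at 31 of 125 heavy V reads (24.8%). Igkv6-15 had 0 to 3 reads in the other 4 aged libraries.

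Igkv3-2 recurred across mice. It led aged caerulein mouse 2 with 92 of 241 kappa V reads (38.2%) and aged caerulein mouse 3 with 55 of 167 (32.9%), and it had 68 reads in aged caerulein mouse 1 and 10 in aged untreated mouse 3. Aged untreated mouse 2 and the 5 young libraries had 0. In aged against young caerulein mice it was at least 74.7-fold higher, against a floor of 3 counts over the young group. In young untreated mouse 2 it was 57 of 3305 kappa V reads. The heavy chain leaders of these mice were Ighv1-53, with 37 of 158 reads (23.4%), and Ighv1-82, with 19 of 71 (26.8%). Ighv1-82 had 0 reads in the other 4 aged libraries.

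**Figure D4:**
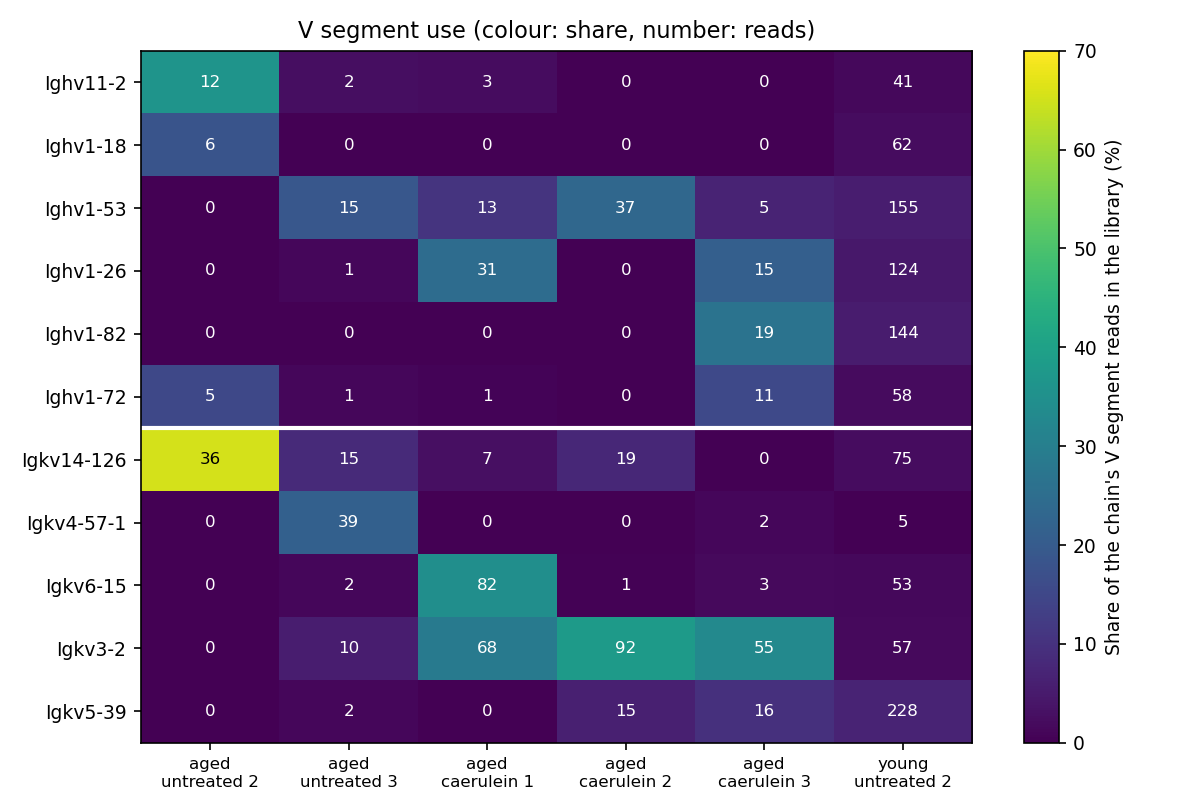
Use of 6 heavy (above the white line) and 5 kappa V segments in the 5 aged libraries and young untreated mouse 2. Colour gives the share of the library's heavy or kappa V reads in percent, and the number in each cell is the count of reads. The brightest cell is Igkv14-126 in aged untreated mouse 2 at 36 reads, while in young untreated mouse 2 the segments drawn take at most 6.90%.

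The aged libraries spread their reads over fewer segments than young untreated mouse 2 did. The effective number of segments is the inverse of the probability that 2 reads, drawn without replacement, fall on the same segment. It was 5.08 to 12.8 for heavy and 2.27 to 10.96 for kappa in the aged libraries. It was 34.0 and 36.4 in young untreated mouse 2, whose leading segments took 7.21% (Ighv1-12) and 6.90% (Igkv5-39). That library had 2734 heavy and 3305 kappa V reads against 33 to 158 and 55 to 241 in the aged, and fewer reads show fewer segments.

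Of the 218 V segments, 117 had no read in any aged library, 45 had reads in 1, 30 in 2, 13 in 3, 12 in 4 and 1 in all 5. The single segment in all 5 was Igkv10-96, with 1 and 5 reads in the aged untreated and 1, 1 and 6 in the aged caerulein libraries. Of the 45 segments seen in 1 aged library, 43 also had reads in young untreated mouse 2, as had every segment seen in 2 or more. By family, Ighv1 took 74.0% of the pooled aged heavy V reads (345 of 466) and 54.6% in young untreated mouse 2. Igkv3 took 31.2% of aged kappa V reads (275 of 882) against 4.39%, most of it from Igkv3-2. Lambda V reads came mainly from aged caerulein mouse 2, with 52 of 59, of which 31 were Iglv1.

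Close copies bear on these counts. Of 112 other heavy V segments compared, 4 were at least 95% identical with Ighv1-26 and 3 with Ighv1-53, and only the nearest is named here. Over its coding sequence Ighv11-2 is 98.9% identical with Ighv11-1, which had 0 reads in all 11 libraries. Ighv1-26 is 96.9% identical with Ighv1-18, which had 6 reads in aged untreated mouse 2 and 0 in the other 4 aged libraries. Ighv1-53 is 95.4% identical with Ighv1-72, with 5, 1, 1, 0 and 11 reads in the aged libraries, and how reads of this pair were split is uncertain. The nearest segments to Igkv3-2 (Igkv3-1, 92.8%) and Igkv14-126 (Igkv14-111, 91.5%) had 0 reads in the 10 libraries other than young untreated mouse 2. Hypermutated reads can also fail to align to their own segment. V reads ran at 260 to 436 per 1000 constant region reads in the aged libraries and 309 in young untreated mouse 2.

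D and J genes, which are very short, gave almost no reads. The 19 D genes had 1 read in all, in young untreated mouse 2. The 14 J genes had 15 reads over the aged libraries, 1 over the 5 young and 146 in young untreated mouse 2.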

How the data were processed

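Per the submitters' processing notes, the authors used HISAT2 2.0.5 with the mm10 build, and featureCounts 1.5.0-p3 for counting. Neither strandedness nor the handling of reads shared by several genes is given in the sources at hand. The deposited table holds whole-number read counts per gene for 11 libraries, 1 mouse each by the labels. The deposited normalised table and comparison tables were not used.

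Genes were kept by edgeR's filterByExpr, scaled by TMM and fitted with 4 group means over all libraries (edgeR 4.0.16, R 4.3.3), with quasi-likelihood F tests of 6 comparisons and Benjamini-Hochberg adjustment over all genes tested. The procedure was tested on simulated data. Levels of single genes are TMM-scaled CPM. Sums over genes are CPM of library totals, and 1 read is 0.0703 CPM in the smallest library. A fold against a group with no reads uses a floor of 3 counts over the group. No molecular identifiers are named, so intervals and floors hold for the counting error alone. The exact permutation test used log2 of CPM plus 0.5.

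Alternatives were no filter, at least 1 CPM in 3 libraries, DESeq2 1.42.0 size factors and test, library totals alone, the compared groups alone, the mouse number as a block, other pseudocounts (0.1 and 2), and leaving out each library. Same-numbered young untreated and young caerulein mice deviated together (correlations of 0.11 to 0.15 in 3 of 3 pairs), a pairing read from the data since the labels state none. Young untreated mouse 1 and young caerulein mouse 3, of unlike number, reached 0.15 as well. Over all groups 6 of 15 same-number and 5 of 30 other pairs were over 0.1, and the other pairs ran from -0.25 to 0.30. Combinations with leaving out young untreated mouse 2 were added after the data were seen. The members and the 11 gene lists (139 of 141 symbols found) were chosen with earlier results of these data known. Named genes were all constant genes with a read, the 3 plasma cell genes, the leading V segments per locus and per library, and up to 5 called V segments per comparison. Other genes named were chosen from the lists after their values were seen. Of the 267 members, 266 had the same start and end in GENCODE M21, from which the sequences were read. Promoters of V segments were not used here. Some genes of the lists are not reported here by name.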

Additional observations from a re-analysis of the deposited data

Results flagged for a closer look

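Of the gene lists read beside the antibody genes, Derl3 and Tent5c had a caerulein response that differed between the ages by a test of the difference itself. Without young untreated mouse 2, the aged minus young difference of the responses was 1.28 ± 0.18 on the log2 scale for Derl3 (SE, edgeR adjusted p = 0.00429) and 1.10 ± 0.17 for Tent5c (adjusted p = 0.00539). Both genes were called lower with caerulein there, in the young and in the aged. The positive difference is thus a smaller fall in the aged. With all 11 libraries the adjusted p of the difference was 0.291 for Derl3 and 0.199 for Tent5c. Of the immunoglobulin genes tested, 0 of 13 passed in edgeR (0 at an unadjusted p under 0.05). No group held 4 or more libraries, so single libraries were not examined for distance from their group by a test.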

How the results depend on the processing

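Young untreated mouse 2 turned the sign of age in the untreated mice and decided most calls. For young caerulein against young untreated mice, the 15 genes called lower became 121 with no filter (205 genes tested), 8 with the stricter filter (8 tested), 7 with library totals alone, 1 with the DESeq2 test (adjusted p not given for 21 of 37) and 1 in the compared groups alone. Leaving out 1 library gave 0 to 25, and without young untreated mouse 2 it was 0 with library totals alone, 0 with the DESeq2 test and 0 with the replicate block. For aged caerulein against aged untreated mice, where 0 were called, no filter gave 4 higher and 5 lower, and the compared groups alone 1 and 1. Leaving out 1 or 2 libraries gave 0 to 3 higher and 0 to 1 lower. Without young untreated mouse 2, library totals alone gave 4 higher. For aged against young untreated mice, no filter gave 29 lower, leaving out 1 or 2 libraries gave 0 to 3 higher, and without young untreated mouse 2 there were 3 higher with library totals alone and 3 with the DESeq2 test. For aged against young caerulein mice the count higher was 21 with no filter, 5 in the compared groups alone, 0 to 9 with 1 or 2 libraries left out, and, without young untreated mouse 2, 6 with library totals alone and 5 with the DESeq2 test. Averaged over treatments it was 3 with no filter, 0 to 8 with 1 or 2 libraries left out, and, without that mouse, 7 with library totals alone and 6 with the DESeq2 test. No filter gave 44 genes called higher for the difference of the responses. The counts here and under the block below are given without the share of all genes called in each setting. Nothing is read from them about the members as a set. Of the members, 202 had reads in young untreated mouse 2 and 15 over the 5 other young libraries, which bears on the counts with no filter. Without that mouse and 1 further library, 5 to 9 were higher in aged against young caerulein mice and 5 to 8 averaged over treatments.

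Mice of the other groups with the same number did not deviate together in every pair. The block was fitted over all libraries of a fit, so the aged mice shared its terms too. With the mouse number as a replicate block, 12 genes were called lower in young caerulein against young untreated mice and 1 higher in aged caerulein against aged untreated mice. The block turned the log2 difference of Igha averaged over treatments to 0.042. Without young untreated mouse 2, the block gave 3 higher in aged against young untreated, 10 in aged against young caerulein, 8 averaged over treatments, and 2 higher and 2 lower in aged caerulein against aged untreated mice.

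Leaving out 1 library moved log2 changes as follows. Against young untreated mice, the aged untreated value ran from -3.24 to 4.32 for Ighm, from -4.03 to 6.61 for Igkc and from -3.36 to 8.85 for Jchain, positive only without young untreated mouse 2. In aged caerulein against aged untreated mice it ran from -0.31 to 1.82 for Igkc and from -0.15 to 0.95 for Jchain, the ends being without aged untreated mice 2 and 3. In young caerulein against young untreated mice Jchain ran from -11.52 (without young caerulein mouse 2, adjusted p = 0.0537) to 1.73 (without young untreated mouse 2). Averaged over treatments, Igha ran from -1.73 to 5.43 and Ighv1-53 from -0.62 to 6.63. The permutation test gave 5 genes at p under 0.05 without young untreated mouse 2 and 0 under the other settings run. The summed constant genes of young untreated mice 1 and 3 were 0.872 CPM of library totals and 1.17 CPM after TMM. Scaling by library totals put the all-gene median log2 change with caerulein at 0.43 in the young and 0.69 in the aged, and that with age at -0.27 in untreated mice. The cause of these moves was not tested. Counts under 3 reads set the limit for D, J and most V genes.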
